A study of Mus musculus with 6 samples.

Results

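The 40 genes described here act in G2 and mitosis, and they were taken as a fixed list of symbols matched to the deposited expression table of 25124 genes. All 40 were found there, each once, and all 40 passed the filter on low values that left 11235 tested genes. RNA sequencing had been done on BMDM, the macrophages obtained from bone marrow in culture, here grown for 7 days from wild-type C57BL/6 mice aged 8 weeks in 20 ng/ml macrophage colony-stimulating factor (M-CSF). The 3 M0 libraries came from cells kept in M-CSF alone, and the 3 M2 libraries from cells given 10 ng/ml interleukin-4 (IL-4) on top of the same M-CSF, with RNA taken after 4 h. Both groups were thus under a growth factor that drives macrophage division, and no group lacked it. The labels do not say whether the 3 libraries of a group came from separate mice. The p-values set the group difference against the spread between these libraries, pooled in part over genes, and that spread may be technical.

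A cell that has copied its DNA enters mitosis when cyclin B and the kinase CDK1 become active. The chromosomes condense, kinetochores built on the centromeres bind spindle microtubules, and a checkpoint holds the cell until every kinetochore is attached. The anaphase-promoting complex (APC/C) then marks cyclin B and securin for destruction, the sister chromatids part, and the cell divides at the midbody. Transcripts of these proteins are made mainly in late S phase, G2 and mitosis, so that they are abundant in dividing cells and scarce in resting ones. In bone marrow cultures M-CSF drives both the differentiation of macrophages and their division.

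Expression was measured as TPM, a transcript level scaled for transcript length and library depth. The libraries held 16913185 to 19019896 reads in genes, recovered from the TPM values, of which 32308 to 38747 fell on the 40 genes in each M0 library and 13800 to 16085 in each M2 library. M0 replicate 2 stood apart from the other M0 libraries. The coefficient of variation of the 40 genes had a median of 9.36% over the 3 M0 libraries and 3.41% without replicate 2. It was 4.04% over the 3 M2 libraries. Over all tested genes these 3 medians were 7.51%, 3.86% and 4.09%. Taking out the library that stands apart lowers the spread by itself. Macrophage marker genes summed to 17022 to 18120 TPM in M0 and 15906 to 16285 TPM in M2, and all 10 passed the filter. Of these 10 genes 4 fell and 4 rose (2 and 5 after median scaling). Among all tested genes 45.3% fell and 17.7% rose (28.2% and 28.8% after median scaling). On the log2 scale Fcgr1, an Fc receptor gene, changed by -2.58 and Csf1r, the gene of the M-CSF receptor, by 0.44. Marrow progenitor markers, which would mark immature cycling cells, summed to 1.85 to 2.73 TPM in M0 and 1.43 to 1.98 TPM in M2 over 10 genes. Of these genes only Cd34 passed the filter, and it fell from 1.17 to 0.478 TPM in the mean. Kit, Flt3, Elane and Ctsg were lower in mean TPM in M2, and Prtn3, Ms4a3, Gata2, Myb and Mpo were higher. All of these were under 0.5 TPM in every library. B and T cell markers summed to 1.98 to 2.68 and 1.74 to 1.93 TPM, neutrophil markers to 48.6 to 59.0 and 49.4 to 56.8 TPM, and stromal markers to 10.4 to 10.9 and 7.33 to 7.92 TPM. The erythroid and megakaryocyte list summed to 703 to 860 and 408 to 426 TPM, nearly all of it Pf4, a platelet chemokine gene that macrophages also express, while Car1, Hba-a1 and Hbb-bs were listed at 0 in all 6 libraries. The part of these lists in the results below was not tested.

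Every one of the 40 genes was lower after IL-4. All 40 passed the test, a p adjusted by Benjamini-Hochberg of less than 0.05, and all 40 fell, where 45.3% of all tested genes fell. In all 40 the 3 M0 libraries lay above the 3 M2 libraries, which held for 49.8% of tested genes. The sizes of the falls were less common: 31 of 40 passed with a log2 fold change of -1 or below, against 4.61% of tested genes. Their median log2 fold change was -1.18, beside -0.15 over all tested genes, and 3.06% of tested genes lay at or below that median. These fold changes are fitted on log2 of TPM plus 1, a scale that understates the change of genes with low levels. Ranks of falls are on that scale unless a ratio of mean TPM is named. In mean TPM the M0 level exceeded the M2 level by 1.32-fold to 3.41-fold, with a median of 2.58-fold, and 34 of 40 genes reached 2-fold. Added up, the 40 genes held 738, 812 and 766 TPM in M0 replicates 1, 2 and 3, and 333, 352 and 348 TPM in M2 replicates 1, 2 and 3. The groups of sums did not overlap, and the mean of the sums was 2.24-fold higher in M0. In RNA from whole cultures, fewer cells in G2 and mitosis and less of each transcript per such cell cannot be told apart.

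TPM values of all genes were shifted between the groups, so the falls were also read relative to that shift. Dividing each library by the median of its gene ratios raised the median log2 fold change of all tested genes from -0.15 to 0.00, and the share of falls among all genes past the threshold went from 71.96% to 49.4%. After that scaling all 40 genes still fell, against 28.2% of tested genes, with log2 fold changes from -1.42 to -0.23 and a median of -1.02. The authors' deposited table, which rests on their own normalization, likewise gives all 40 as lower at an adjusted p under 0.05, against 25.8% of the tested genes. Fitted instead with limma-voom on the recovered reads, all 40 fell, against 41.1% of tested genes. The log2 fold changes of the authors' deposited table run from -1.56 to -0.22 with a median of -1.18.

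**Figure D1:**
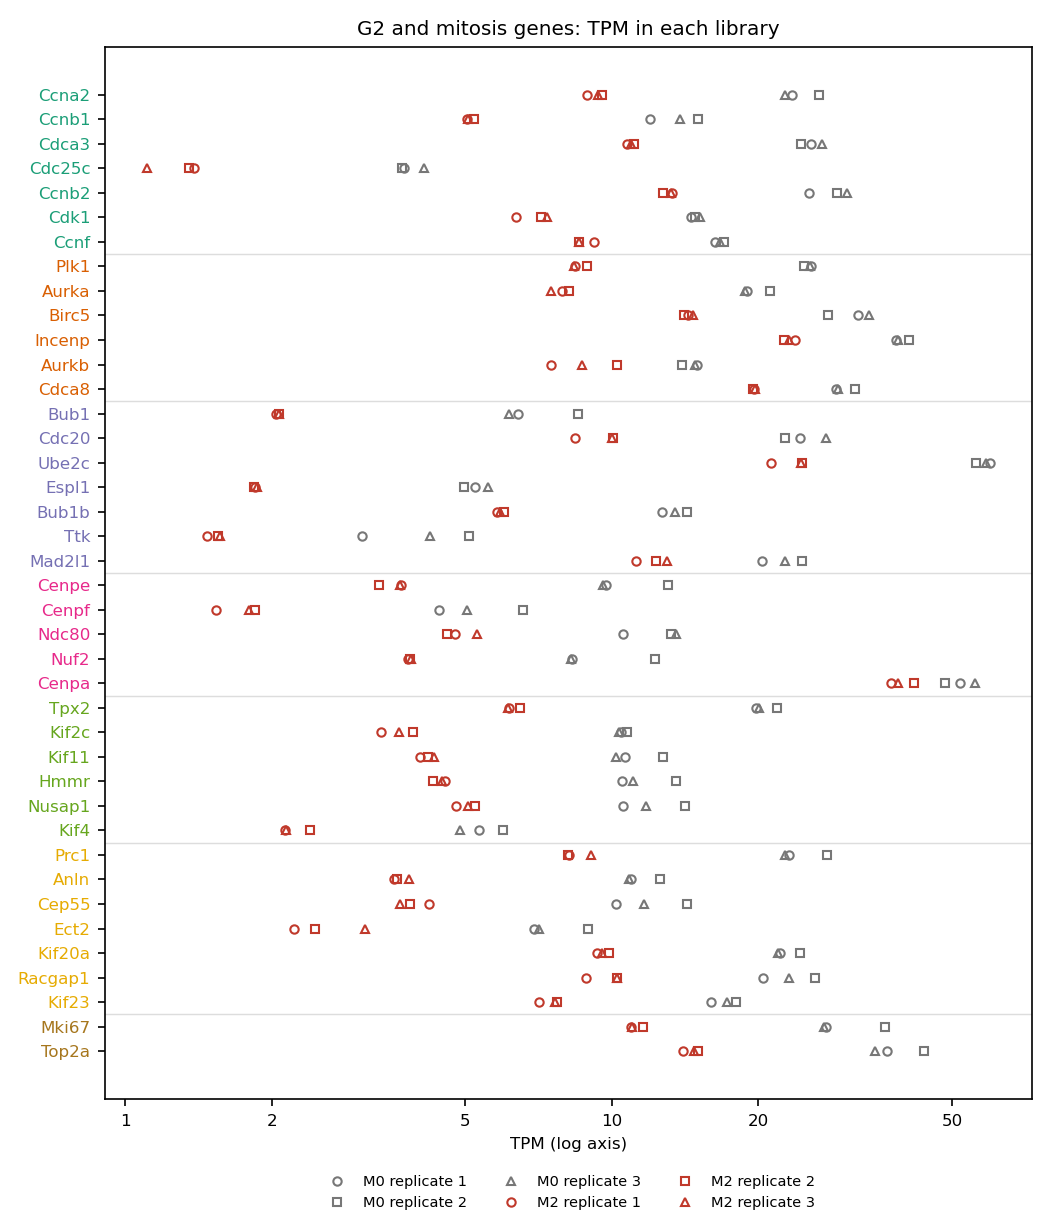
TPM of the 40 genes in each of the 6 libraries, on a log axis, with genes grouped by role (coloured names, grey lines between groups) and ordered by fitted change within each group. Grey symbols are M0 and red symbols M2, the shape gives the replicate number, and in every row the 3 grey symbols lie to the right of the 3 red ones.

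As background, many mitotic genes carry near their start site a short element called the cell cycle genes homology region (CHR), which the MuvB complexes bind, and CCAAT boxes, which NF-Y binds. RefSeq windows on GRCm38.p6, from 250 bases before to 50 bases after a start site, were at hand for 34 of the 40 genes in 37 windows. No window was used for Aurkb, Ccna2, Cdc25c, Incenp, Kif20a and Tpx2. The CHR letters TTTGAA or the variant TTCGAA, on either strand, were found in 31 of 37 windows (83.8%), against 14.1% of the 11161 windows of tested genes and 19.2% of all 32851 windows. CCAAT on either strand was in 28 of 37 windows (75.7%), against 37.7% of windows of tested genes and 37.4% of all windows. It occurred at least 2 times in 51.4% of the members' windows, against 14.6% and 11.7%. Both kinds of letters stood together in 26 windows (70.3%), against 5.80% and 7.52%. Neither of the E2F motifs searched, TTTGGCGC and TTTCCCGC, was in any of the 37 windows, and 3.10% of windows of tested genes held at least 1 of them. No searched motif contains another, and TTCGAA is its own reverse complement. Cep55, Ect2 and Prc1 have 2 overlapping windows each. By gene, 28 of 34 held a CHR spelling and 26 of 34 held CCAAT. A match of letters is a description of the sequence and does not show that a factor is bound.

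Windows of 6 members are shown to let these elements be seen: in each of 6 role groups, the gene with the largest fitted fall among those whose window holds the deposited transcript start. They lie at chr13:100786437-100786736 (minus strand) for Ccnb1, chr7:122159185-122159484 (plus) for Plk1, chr2:127831810-127832109 (minus) for Bub1, chr3:135212313-135212612 (plus) for Cenpe, chr19:37376132-37376431 (plus) for Kif11 and chr7:80294201-80294500 (plus) for Prc1. Each runs 5′ to 3′ on the strand of its gene, and capitals mark the 2 CHR spellings and CCAAT, or their reverse complements.
Ccnb1: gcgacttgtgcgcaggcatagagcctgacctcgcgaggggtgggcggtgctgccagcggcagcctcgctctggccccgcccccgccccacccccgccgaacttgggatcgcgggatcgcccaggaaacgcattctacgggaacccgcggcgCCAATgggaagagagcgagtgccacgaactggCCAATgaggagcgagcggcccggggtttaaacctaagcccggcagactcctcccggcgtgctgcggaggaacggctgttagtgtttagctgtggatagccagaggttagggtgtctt
Plk1: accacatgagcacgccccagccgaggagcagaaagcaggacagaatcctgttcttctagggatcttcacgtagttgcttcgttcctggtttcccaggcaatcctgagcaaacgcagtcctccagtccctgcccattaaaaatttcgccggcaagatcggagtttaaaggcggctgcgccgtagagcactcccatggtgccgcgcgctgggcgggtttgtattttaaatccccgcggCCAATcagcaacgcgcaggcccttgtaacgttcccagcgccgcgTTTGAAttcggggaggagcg
Bub1: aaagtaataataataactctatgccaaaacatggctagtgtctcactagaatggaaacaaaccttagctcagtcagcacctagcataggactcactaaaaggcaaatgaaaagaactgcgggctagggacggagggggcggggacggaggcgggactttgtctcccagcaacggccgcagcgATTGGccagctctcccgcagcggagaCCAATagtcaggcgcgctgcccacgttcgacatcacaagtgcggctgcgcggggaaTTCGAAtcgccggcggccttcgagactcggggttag
Cenpe: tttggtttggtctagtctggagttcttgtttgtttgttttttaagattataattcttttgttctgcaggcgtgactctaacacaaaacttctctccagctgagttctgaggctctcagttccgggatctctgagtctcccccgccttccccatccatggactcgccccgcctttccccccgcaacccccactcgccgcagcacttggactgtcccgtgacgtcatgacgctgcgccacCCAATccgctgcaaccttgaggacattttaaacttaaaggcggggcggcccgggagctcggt
Kif11: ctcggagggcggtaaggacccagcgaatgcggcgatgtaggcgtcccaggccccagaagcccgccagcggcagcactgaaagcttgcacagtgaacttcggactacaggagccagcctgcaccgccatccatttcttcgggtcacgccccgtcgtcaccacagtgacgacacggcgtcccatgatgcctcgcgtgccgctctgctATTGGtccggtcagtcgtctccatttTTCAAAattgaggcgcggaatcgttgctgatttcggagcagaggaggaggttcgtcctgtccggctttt
Prc1: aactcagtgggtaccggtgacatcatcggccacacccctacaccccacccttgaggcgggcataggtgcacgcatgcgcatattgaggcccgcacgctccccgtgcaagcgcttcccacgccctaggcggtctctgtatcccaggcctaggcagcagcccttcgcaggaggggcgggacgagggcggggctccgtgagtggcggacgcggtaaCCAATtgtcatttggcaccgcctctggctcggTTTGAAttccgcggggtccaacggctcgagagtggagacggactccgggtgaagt
Prc1, Plk1 and Kif11 hold CCAAT upstream of TTTGAA, Kif11 with both on the opposite strand. Bub1 holds CCAAT on both strands and TTCGAA after the start site. Ccnb1 and Cenpe hold CCAAT but neither CHR spelling searched, and other spellings were not searched. The 6 genes were chosen by the size of their falls, so these windows cannot relate an element to a fall. Across the members' windows the first base of CCAAT lay at a median of 71 bases before the start site, counted as -71.

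The 7 genes that bring cells into mitosis summed to 127 ± 5.41 TPM in M0 against 55.4 ± 0.427 TPM in M2 (SD, n = 3 each). Ccna2 encodes cyclin A2, which carries cells through S phase into G2 (chromosome 3, positions 36564865 to 36573038, 8 exons, mm10). It stood at 23.4, 26.6 and 22.7 TPM in M0 and 8.87, 9.55 and 9.37 TPM in M2. The lowest M0 value was more than 2-fold above the highest M2 value, and the log2 fold change of -1.30 with an SE of 0.07 (adjusted p = 1.2e-07) was the largest of the 7 genes of mitotic entry, while Cdc25c, at a far lower level, had the largest ratio of means. Ccnb2, a B-type cyclin gene with the highest mean level among these 7, had 25.4, 29.02 and 30.5 TPM in M0 and 13.3, 12.7 and 13.2 TPM in M2. The smallest fall was that of Ccnf, the gene of the F-box protein cyclin F, from 16.3, 16.97 and 16.7 TPM to 9.18, 8.55 and 8.56 TPM. The values were tight in both groups, with a ratio of the means of 1.90, and the log2 fold change was -0.85 (SE 0.06, adjusted p = 8.6e-07). Ccnb1, the main mitotic B-type cyclin gene, was 2.67-fold lower in mean TPM. Cdk1, its kinase, was 2.13-fold lower, and its 3 M0 libraries lay close together at 14.8 ± 0.326 TPM (SD, n = 3) against 6.96 ± 0.5403 TPM in M2. Cdc25c, the phosphatase that activates CDK1, had the lowest level of all 40 genes at 3.85 ± 0.223 TPM in M0 against 1.28 ± 0.1502 TPM in M2 (n = 3 each). Its fall rested on as few as 35 reads in an M2 library. Cdca3, which helps remove the CDK1 inhibitor WEE1, was 2.35-fold lower.

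The mitotic kinases and the chromosomal passenger complex held both the fall with the smallest p and some of the smallest falls. Plk1 encodes polo-like kinase 1, which acts from mitotic entry to cytokinesis (chromosome 7, positions 122159435 to 122169884, 10 exons). It had 25.6, 24.8 and 25.5 TPM in M0 and 8.41, 8.87 and 8.34 TPM in M2. The M0 libraries were the tightest of the 40 genes, with a coefficient of variation of 1.64%, and the log2 fold change of -1.46 (SE 0.06) had the smallest adjusted p of the 40, 9.5e-09. Aurka, the spindle pole kinase gene, was 2.50-fold lower in mean TPM. The other 4 genes encode the passenger complex, which corrects faulty attachments and directs cytokinesis. Birc5 (survivin) was 2.17-fold lower, Incenp (the scaffold) 1.70-fold, Aurkb (the kinase) 1.66-fold and Cdca8 (borealin) 1.52-fold. Incenp, the most abundant of this role group, held 38.4, 40.8 and 38.6 TPM in M0 and 23.8, 22.5 and 23.1 TPM in M2. Cdca8 held 28.8, 31.6 and 29.1 TPM in M0 and 19.6, 19.5 and 19.7 TPM in M2, so that the groups stayed apart although its log2 fold change was only -0.58 (SE 0.05, adjusted p = 7.0e-06). Aurkb had the widest M2 spread of these genes, 7.51, 10.2 and 8.67 TPM, below its M0 values of 14.9, 13.96 and 14.8 TPM. Incenp, Aurkb and Cdca8 were thus among the 6 of 40 genes with a ratio of mean TPM under 2, though differences between genes were not tested.

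The 7 spindle checkpoint and anaphase genes summed to 135.5 ± 3.40 TPM in M0 against 56.4 ± 3.84 TPM in M2 (SD, n = 3 each). Bub1 encodes a checkpoint kinase that sits at kinetochores (chromosome 2, positions 127800200 to 127831859, 25 exons). With 6.41, 8.51 and 6.15 TPM in M0 and 2.04, 2.07 and 2.07 TPM in M2, it had the highest ratio of mean TPM of all 40 genes, 3.41. Its M0 replicate 2 was well above the other M0 libraries, while the 3 M2 libraries were almost equal. Ube2c, the ubiquitin-conjugating enzyme gene that works with the APC/C, was the most abundant of the 40 genes in M0, at 59.8, 56.1 and 58.8 TPM, and stood at 21.2, 24.6 and 24.5 TPM in M2. Cdc20, the APC/C activator gene, was 2.62-fold lower in mean TPM and Espl1, the gene of separase, which cuts the cohesin between sister chromatids, 2.84-fold. Mad2l1, whose product inhibits CDC20 until attachment is complete, showed the smallest fall of this role group, from 20.3, 24.5 and 22.7 TPM to 11.2, 12.3 and 12.96 TPM (log2 fold change -0.84, SE 0.08, adjusted p = 7.9e-06). Bub1b, the gene of the checkpoint protein BUBR1, was 2.29-fold lower. Ttk, the checkpoint kinase gene MPS1, had the largest SE of the 40 genes: its M0 libraries held 3.06, 5.09 and 4.23 TPM, its M2 libraries 1.47, 1.55 and 1.57 TPM, and the ratio of the means was 2.70 (SE of the log2 fold change 0.13, adjusted p = 9.0e-05).

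At the kinetochore, 4 genes had log2 fold changes of -1.11 or below and the fifth, Cenpa, had the smallest fall of the whole list. Cenpa encodes the histone H3 variant that marks centromeres (chromosome 5, positions 30666886 to 30674837, 5 exons). It held 52.01, 48.4 and 55.8 TPM in M0 and 37.4, 41.9 and 38.8 TPM in M2. The groups did not overlap, with M0 replicate 2 nearest to the M2 libraries, and the log2 fold change of -0.39 with an SE of 0.06 (adjusted p = 3.6e-04) was smaller than that of any other member. After median scaling it was -0.23 (adjusted p = 0.022). Cenpa came after Ube2c in M0 and was the most abundant of the 40 genes in M2, and its share of their summed mean TPM went from 6.75% to 11.4%. Cenpe, a kinesin gene of the outer kinetochore (chromosome 3, positions 135212563 to 135273540, 46 exons), had the largest fitted fall of this role group, from 9.73, 13.05 and 9.58 TPM to 3.69, 3.32 and 3.66 TPM. That is a log2 fold change of -1.36 with an SE of 0.11 (adjusted p = 2.2e-06). In mean TPM it was 3.03-fold lower, and Cenpf, a large kinetochore protein gene at a lower level, 3.1-fold. Ndc80 and Nuf2 encode partners in the complex that grips microtubules, and they were 2.55-fold and 2.50-fold lower.

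Of the spindle genes, Tpx2 was both the most abundant and the one with the largest fall on the log2 scale of all 40. Its product nucleates spindle microtubules and activates Aurora A (chromosome 2, positions 152847964 to 152895321, 18 exons). It held 19.8, 21.9 and 20.02 TPM in M0 and 6.15, 6.47 and 6.11 TPM in M2, with a log2 fold change of -1.57 with an SE of 0.07 (adjusted p = 1.6e-08). Both groups were tight, and the mean was 3.29-fold higher in M0. Kif2c, a kinesin gene whose product takes microtubules apart, was 2.89-fold lower, and Kif11, the motor gene that pushes spindle poles apart, 2.67-fold lower. Hmmr and Nusap1, genes of spindle-binding proteins, were 2.64-fold and 2.42-fold lower. Kif4, the chromokinesin gene, had the smallest fitted fall here, though its ratio of mean TPM, 2.43, was slightly above that of Nusap1, from 5.33, 5.96 and 4.87 TPM to 2.13, 2.39 and 2.14 TPM, a log2 fold change of -0.99 with an SE of 0.09 (adjusted p = 5.2e-06).

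All 7 cytokinesis genes had log2 fold changes of -1.09 or below. Prc1, which bundles the microtubules of the central spindle (chromosome 7, positions 80294451 to 80316259, 14 exons), held 23.1, 27.6 and 22.6 TPM in M0 and 8.15, 8.14 and 9.05 TPM in M2. Its log2 fold change was -1.43 (SE 0.08, adjusted p = 1.9e-07). Racgap1 encodes a GTPase-activating protein of the centralspindlin complex. Its mean over all 6 libraries was the highest of the 7 by a narrow margin, though Prc1 had the higher mean in M0. Racgap1 had 20.4, 26.1 and 23.2 TPM in M0 and 8.84, 10.2 and 10.3 TPM in M2. Its motor partner Kif23 had the smallest fall of the 7, from 15.99, 17.98 and 17.3 TPM to 7.09, 7.71 and 7.64 TPM. Anln (anillin, which organises the contractile ring), Cep55 (a midbody protein) and Ect2 (the activator of RhoA at the cell equator) were 3.12-fold, 3.08-fold and 2.94-fold lower in mean TPM. Kif20a, a kinesin gene of the central spindle, was 2.38-fold lower.

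The remaining pair are widely used markers of proliferation. Mki67 encodes the Ki-67 protein that coats mitotic chromosomes (chromosome 7, positions 135689788 to 135716379, 14 exons), and Top2a encodes the topoisomerase that untangles sister DNA. Mki67 stood at 27.6, 36.4 and 27.2 TPM in M0 and 10.97, 11.6 and 10.98 TPM in M2. Top2a stood at 36.8, 43.9 and 34.7 TPM in M0 and 14.02, 15.1 and 14.7 TPM in M2. In both, M0 replicate 2 was the highest library and the M2 libraries were alike, and the log2 fold changes were -1.36 (SE 0.10, adjusted p = 1.3e-06) and -1.33 (SE 0.08, adjusted p = 2.7e-07).

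**Figure D2:**
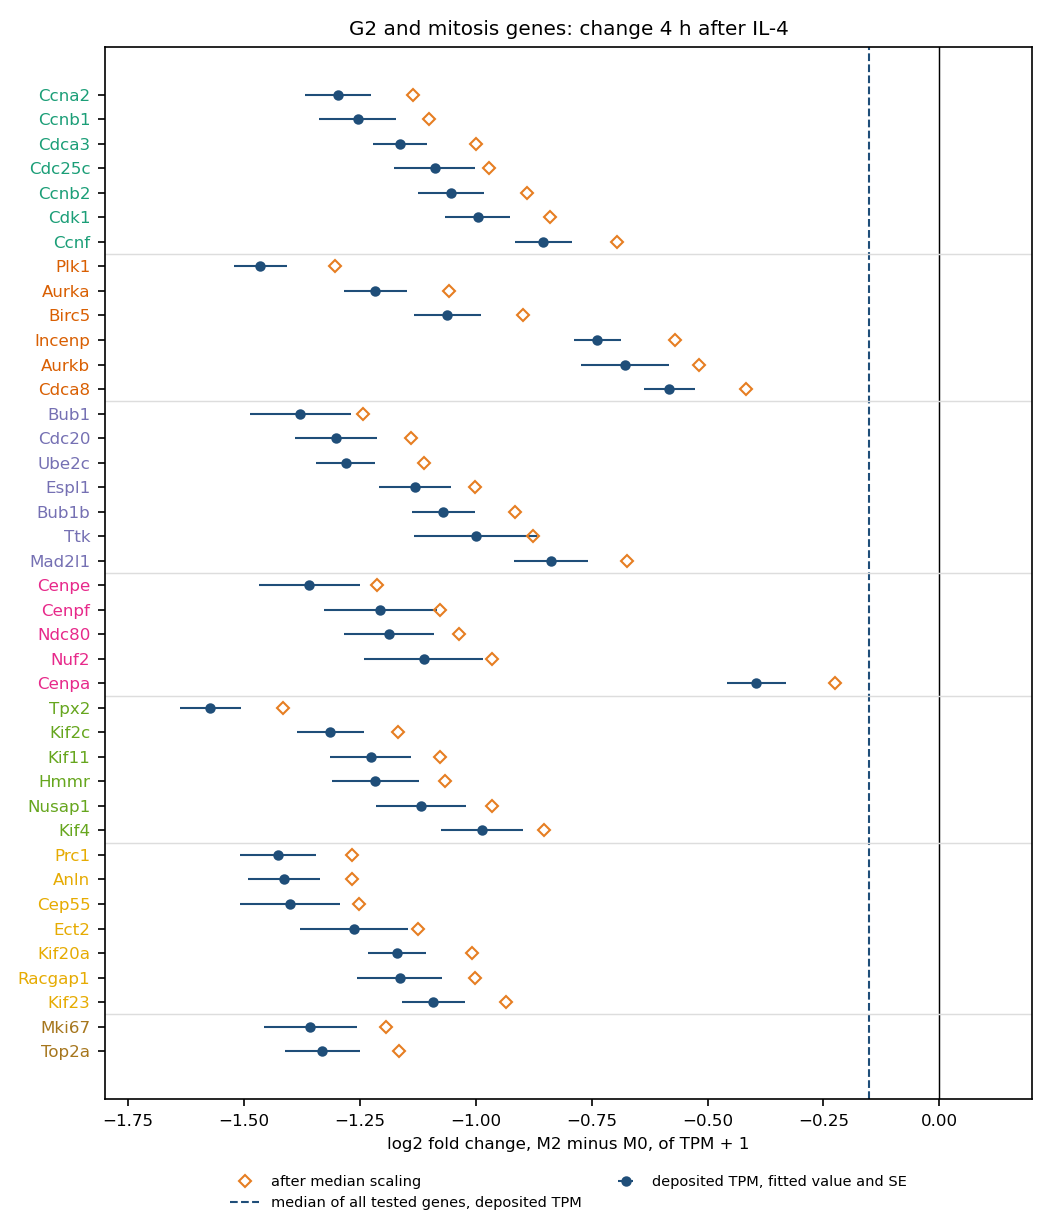
Fitted log2 fold change (M2 minus M0, of TPM plus 1) with its SE for the 40 genes, in role groups, as filled circles, and the value after median scaling as open diamonds. All points lie left of 0, from -1.57 for Tpx2 to -0.39 for Cenpa on deposited TPM, and Cenpa comes nearest to the dashed line, the median of all tested genes at -0.15.

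Across the 40 genes the size of the fall was described against level and length. Pearson's r of the log2 fold change was 0.15 with the log2 mean M0 level and -0.36 with the log10 transcript length (Spearman's rho 0.06 and -0.34). The M0 level also enters the fold change, and adding 1 to TPM understates falls at low levels. The r with level therefore cannot show whether the fall depends on level. Genes are not independent replicates, they share the same 6 libraries, and length also moved with a difference between M0 libraries. In M0 replicate 2 the 29 members with transcripts over 2000 bases were above replicates 1 and 3 by a median log2 difference of 0.20, and replicate 2 was the highest M0 library for 25 of them. For the 11 members of 2000 bases or less the median difference was -0.08, and replicate 2 was the lowest for 7. Nuf2 showed the widest gap, at 12.3 TPM against 8.29 and 8.26 TPM, whereas Birc5, with the second shortest transcript, was at 27.8 TPM against 32.0 and 33.7 TPM. All tested genes leaned the same way, with median differences of 0.10 above 2000 bases and -0.04 at or below. Without M0 replicate 2 all 40 genes still fell, with a median log2 fold change of -1.14, namely -1.14 for the longer and -1.11 for the shorter members. With a trend on length removed the median was -1.16 and all 40 fell.

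**Figure D3:**
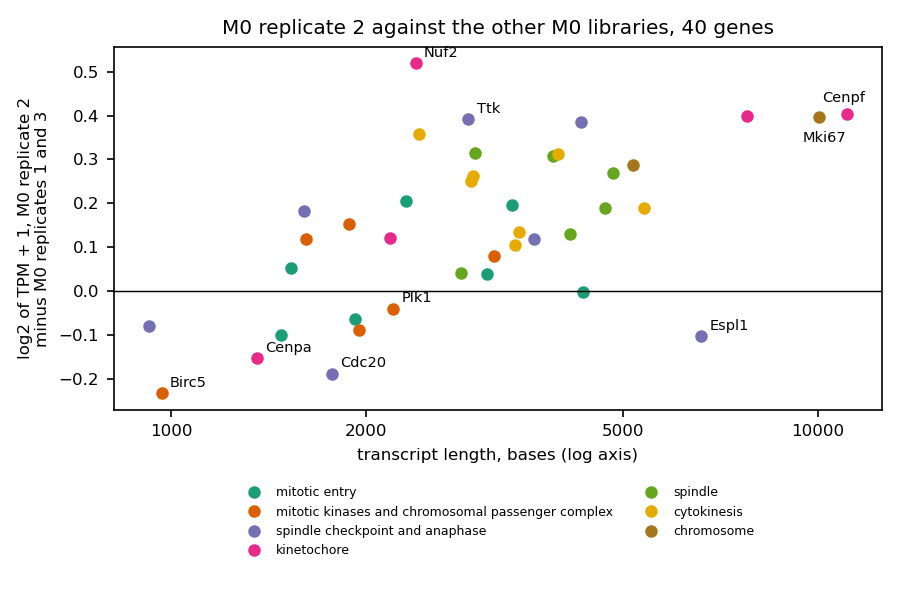
Difference of M0 replicate 2 from the mean of M0 replicates 1 and 3 (log2 of TPM plus 1) against transcript length on a log axis, 1 point per gene, coloured by role. Most members with long transcripts lie above 0, up to 0.52 for Nuf2, and those at or below 2000 bases have a median of -0.08, down to -0.23 for Birc5.

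Regulators of these genes were read from the same test, in which 45.3% of all tested genes fell and 17.7% rose (28.2% and 28.8% after median scaling). Of 7 genes of the MuvB core, B-MYB and FOXM1, which together switch mitotic genes on or off, 6 fell and 1 did not pass (5 fell and 0 rose after median scaling), with a median log2 fold change of -0.46. Foxm1, the forkhead activator gene of mitotic genes, fell from 8.24, 8.54 and 7.92 TPM to 2.64, 2.73 and 2.997 TPM, a log2 fold change of -1.29 with an SE of 0.08 (adjusted p = 2.1e-07). The groups were far apart, and this fall was larger than the members' median. Lin9, a MuvB subunit gene, fell from 5.92 ± 0.646 to 2.39 ± 0.412 TPM (SD, n = 3 each). Lin54, the subunit that binds the CHR, changed by -0.46 on the log2 scale (adjusted p = 0.0049), and Mybl2 (B-MYB) one of -0.51 (adjusted p = 4.2e-04) at a low level of 1.72 ± 0.0998 TPM in M0. Of 13 E2F and pocket protein genes, 10 fell, 1 rose and 2 did not pass (8 fell and 2 rose after median scaling). E2f2, E2f8 and Tfdp1, the gene of an E2F partner, had the largest fitted falls, with log2 fold changes of -1.001, -0.94 and -0.75. In mean TPM the largest ratio was that of E2f7, at a low level, 2.48. E2f4, the E2F of resting cells, had one of -0.41, and E2f1 one of -0.22 that lost its call after median scaling (-0.06, adjusted p = 0.36). Rbl2, the pocket protein gene p130 of the repressor complex DREAM, was the gene that rose, from 17.6, 19.7 and 17.3 TPM to 24.5, 22.8 and 24.3 TPM (log2 fold change 0.38, SE 0.06, adjusted p = 5.5e-04), and it also rose after median scaling. All 3 NF-Y subunit genes fell slightly, Nfyb most at -0.52, but only Nfyb did so after median scaling.

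The switch of CDK1 itself and the APC/C gave lists with smaller falls. Their counts stand beside 45.3% of all tested genes that fell and 17.7% that rose (28.2% and 28.8% after median scaling). Of 14 genes of CDK1 phosphorylation and its control, 11 fell and 3 did not pass, with a median log2 fold change of -0.63 (9 fell and 2 rose after median scaling). Fbxo5, the APC/C inhibitor gene EMI1, Cdc25a and Cdc25b, both phosphatase genes, had log2 fold changes of -1.10, -1.08 and -0.98. Wee1, whose kinase holds CDK1 inactive, fell as well, from 15.1 ± 0.188 to 8.55 ± 0.532 TPM (SD, n = 3 each). Pkmyt1, the gene of the other inhibitory CDK1 kinase, did not pass (-0.14, adjusted p = 0.17). A list of 16 genes joined the APC/C core and its activator CDH1 with Pttg1 and Ube2s. In it 11 fell and 5 did not pass, with a median of -0.27 near that of all genes, and after median scaling 5 fell and 2 rose. Securin (Pttg1), the APC/C target, and Ube2s, its chain-extending enzyme, led that list with -0.71 and -0.64. Fzr1 (CDH1), which keeps the APC/C active in G1, had -0.27, and -0.10 after median scaling, where it lost its call (adjusted p = 0.18). Cdc20, the activator that works with the APC/C in mitosis, is one of the 40 genes and stood at -1.30.

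Other genes of mitosis that are not in the list of 40 were read in the same way, beside the same shares of all tested genes (45.3% fell and 17.7% rose). Of 63 tested genes in 2 lists, 57 fell, 2 rose and 4 did not pass, with a median log2 fold change of -0.75 (52 fell and 3 rose after median scaling). The 28 tested spindle and cytokinesis genes had a median of -1.03, and their largest fitted fall was that of Pimreg, a mitotic regulator gene, at 17.3, 18.99 and 21.4 TPM in M0 and 5.06, 5.81 and 6.15 TPM in M2. Pimreg fell by 1.60 on the log2 scale, next to Tpx2 with 1.57. In mean TPM its ratio was 3.39, under the 3.57 of Kif14, a kinesin gene at a low level. Pbk, a mitotic kinase gene, and Ckap2l, a spindle protein gene, followed with -1.39 and -1.38. The 35 kinetochore and checkpoint genes had a median of -0.60. In that list Ska3, Ska2 and Sgo2a, of which the first pair stabilise attachments and the last protects centromeric cohesion, had -1.23, -1.22 and -1.11. Bub3, the checkpoint partner of Bub1 and Bub1b, had only -0.46, from 59.5 ± 1.86 to 43.1 ± 2.05 TPM, and the centromere protein gene Cenpc1 had -0.44. The 2 genes that rose were named after their values were seen. Psrc1, a microtubule-binding protein gene, stood at 6.24, 7.53 and 6.55 TPM in M0 and 13.5, 14.5 and 14.1 TPM in M2, a log2 fold change of 0.96 with an SE of 0.08 (adjusted p = 2.2e-06). Kif3a, a motor gene of intracellular transport and cilia as well as of spindles, went from 10.3 ± 0.572 to 15.8 ± 0.1901 TPM.

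Genes of chromosome structure and of the preceding S phase also fell in most cases. Of 19 condensin and cohesin genes 15 fell and 4 did not pass, with a median log2 fold change of -0.45 (13 fell and 1 rose after median scaling). The condensin genes Ncapg2 and Ncaph had -1.39 and -1.003, and Cdca5 (sororin, which keeps cohesin in place) had -0.93. Of 44 DNA replication genes 40 fell, 1 rose and 3 did not pass, with a median of -0.65 (34 fell and 3 rose after median scaling). Uhrf1, which guides maintenance methylation of new DNA, Cdt1, a licensing factor gene, and Tk1, the thymidine kinase gene, had -1.45, -1.38 and -1.33. Rrm2 (ribonucleotide reductase) had -1.11, and the helicase genes Mcm2 and Mcm5 had -0.94 and -0.90. Pcna, the sliding clamp gene, which also serves DNA repair, went from 234.2 ± 9.41 TPM in M0 to 189.5 ± 3.75 TPM in M2, with -0.30. Dut, the dUTPase gene, was the one that rose, by 0.77. The share that fell in each of these lists is set beside 45.3% of all tested genes, or 28.2% after median scaling. Leaving the cell type markers aside, Depdc1a, a mitotic gene, was the 1 list gene under the filter. It had 0.826 to 1.21 TPM in M0 and 0.138 to 0.269 TPM in M2.

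**Figure D4:**
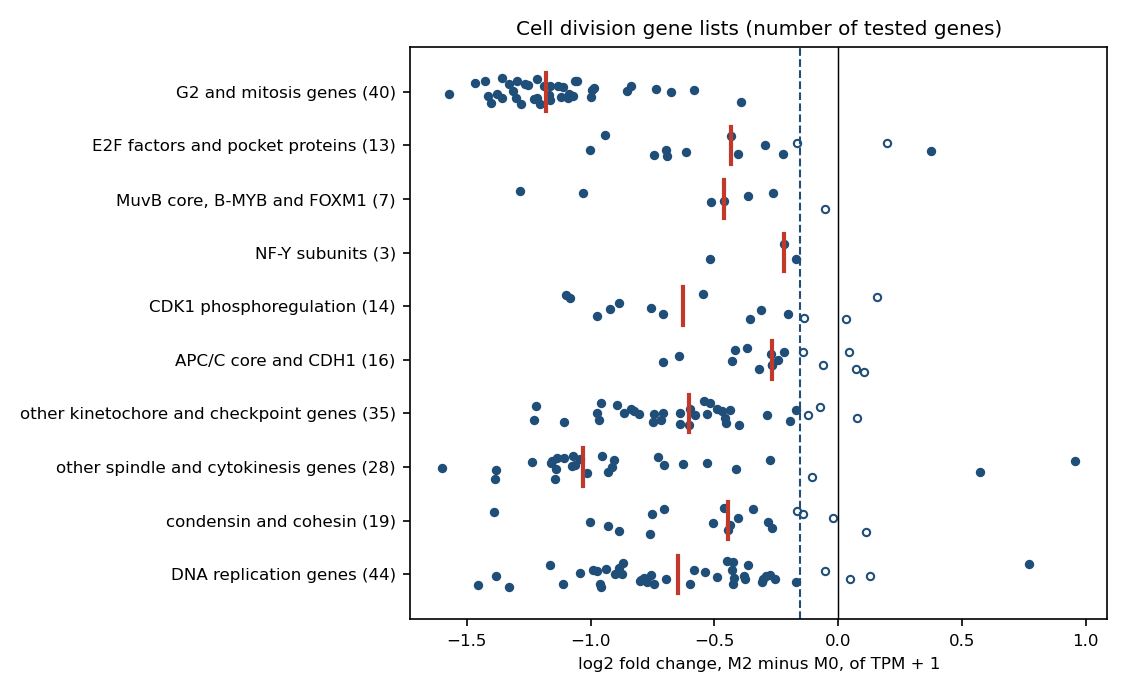
Fitted log2 fold changes (M2 minus M0, of TPM plus 1), 1 point per tested gene, for the 40 genes and the lists of related genes; filled points passed the test, open points did not, red bars are list medians and the dashed line is the median of all tested genes, -0.15. The 40 genes have a median of -1.18 and none above -0.39, and other spindle and cytokinesis genes come next at -1.03. The list of the APC/C core and CDH1, which also holds Pttg1 and Ube2s, lies near the dashed line at -0.27.

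Some members share genome bases with other genes, and the labels do not say whether counting used the strand. In the GENCODE M21 annotation, matched by transcript identifier for 39 of the 40 genes, 8 members overlap exons of another gene and 4 do so over more than 10% of their exon bases. Kif20a shares 34.6% of its bases with Cdc23, Prc1 26.7% with Rccd1, Ccna2 17.2% with Exosc9 and Kif4 16.7% with Pdzd11, each on the opposite strand. Rccd1 stood at 1.255 and 1.303 TPM in M0 and M2, far under Prc1. Cdc23 was at 16.1 and 11.7 TPM, Exosc9 at 30.8 and 21.4 TPM and Pdzd11 at 33.8 and 27.96 TPM, levels close to or above those of Kif20a, Ccna2 and Kif4, so the values of these 3 members are less certain. The part of the shared bases in their falls was not tested. No member has more than 1 copy in the deposited table.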

How the data were processed

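Poly(A) RNA for the 3 M0 and 3 M2 BMDM libraries was prepared from 100 ng of total RNA with a NEBNext Ultra kit, per the labels' protocols. The submitters' processing notes name bcl2fastq, STAR, HOMER 4.11.1, DESeq2 and the mm10 genome. The authors deposited TPM per gene, in which 1 transcript stands for each gene, together with log2-scale values per library, log2 fold changes and adjusted p-values (the authors' deposited table). The 2 tables were joined by symbol, since 4515 genes, 10 members among them, carry another transcript in the second. The deposited TPM of a gene times its length came in steps of whole reads for 99.8% to 99.9% of values (within 0.1 read), which gave reads per library.

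The fit was made with limma 3.58.1 in R 4.3.3 on log2 of TPM plus 1, with trend and robust variance, group as the only term, two-sided, for genes of at least 1 TPM in at least 3 libraries. P-values were adjusted over all 11235 tested genes by Benjamini-Hochberg with a threshold of 0.05. Median scaling divided each library by the median of its ratios to the gene means (factors 0.941 to 1.09). The main fit alone was also run on simulated reads, with a fixed spread for all genes and no length trend in M0 replicate 2. No result given here rests on that run. There were 15 alternative fits, among them limma-voom on recovered reads. In each role group every library's value is given for the gene with the highest mean TPM and those with the largest and smallest change. In each related list, up to 3 genes with the largest change and a few fixed names are given, and other names were added after their values were seen. Motifs were counted in RefSeq promoter windows on both strands.

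The 40 members, the lists and the tests were chosen with earlier results of these data known.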

Additional observations from a re-analysis of the deposited data

How the results depend on the processing

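All 40 members fell in each alternative fit except the one with a filter of at least 5 TPM, where 35 were tested and 35 fell. No result reversed. The members' median log2 fold change, -1.18, was -0.98 on the authors' deposited log2-scale values, -1.31 with limma-voom on recovered reads, -1.02 after median scaling, -1.34 with a pseudocount of 0.1 and -0.82 with a pseudocount of 5. Leaving out 1 library gave -1.24 to -1.14, with 40 members past the threshold each time and 6218 to 7456 for all genes past the threshold. With the replicate number as a block, 40 members and 6916 genes passed (7071 without it) and the median was -1.18. Deviations of same-numbered libraries correlated at 0.0050, -0.0049 and -0.043, so that the numbers were not taken to pair the libraries, and the block changed the call of Nfyc only among the named genes. Of 568 values of named related genes under the alternatives 553 kept their call and 15 lost it: 9 of Nfyc and 2 each of Nfya, E2f1 and Fzr1. Depth sets a limit for the lowest members: Cdc25c rested on 35 to 39 reads in each M2 library. The 3 libraries per group limit the precision of each SE, and no interval covers differences between mice or cultures.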
